A study of Mus musculus with 15 samples.

Results

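The interaction of CD103 with CD11b was measured across the 4 subsets of CD64- DCs that these integrins define in the small intestinal lamina propria (LP). CD103 is the αE integrin chain, encoded by *Itgae*, and CD11b is the αM integrin chain, encoded by *Itgam*. The study hybridized RNA from sorted cells of WT mice at steady state to 15 single-sample microarrays, as part of work on how TGFβ receptor signalling shapes intestinal DCs. All 12 arrays of CD64- DCs were used here, 3 for each subset (CD103+CD11b+, CD103-CD11b+ as its counterpart, CD103+CD11b-, and CD103-CD11b- as the counterpart of that), and the 3 arrays of CD64+ macrophages (mϕ) served only as a comparison of levels. Counterpart here refers to the sort labels alone. The study left the small CD103-CD11b- subset out of its comparison of genes between subsets. It describes this subset as heterogeneous in phenotype and variable in size, and says that it may come from isolated lymphoid follicles. No animal carried a transgene or received a treatment, as far as the labels and methods say. The study calls the replicates biological, and used young adult mice of both sexes, but neither source gives how many animals stand behind an array, and the p-values measure the spread between these arrays, part of which may be technical. Between 7252 and 7547 genes had a log2 signal over 6 on each DC array, replicates of a subset correlated at 0.986 to 0.995 across genes, and 3 arrays a subset limit the precision.

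Each value is a log2 signal, so a difference of 1 is a doubling of signal. For each of 19938 genes the CD103-associated difference was taken among CD11b+ DCs (CD103+CD11b+ minus CD103-CD11b+) and among CD11b- DCs (CD103+CD11b- minus CD103-CD11b-), and the interaction is the first difference minus the second. It is positive where CD103 went with a higher signal among CD11b+ DCs than among CD11b- DCs, and it would be 0 for a gene that differed equally by CD103 in both. To pass, a gene needed a p under 0.01 in limma after Benjamini-Hochberg adjustment and an interaction over 1 in either direction on the log2 scale, the same limits being used for each of the simple differences.

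Conventional DCs take up antigen, migrate to lymph nodes and prime T cells. They form a pair of lineages: cDC1, which depend on the transcription factors IRF8 and BATF3, carry XCR1 and CLEC9A and are efficient in cross-presenting antigen to CD8+ T cells, and cDC2, which rely more on IRF4 and carry SIRPα. In the intestine CD103 marks cells of both lineages, and CD11b divides them: CD103+CD11b- DCs are cDC1, whereas both CD11b+ subsets belong to cDC2. DCs that carry both integrins are characteristic of the small intestine. The same surface protein is thus read against a different cellular background on the CD11b+ and CD11b- sides of this design.

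The sort genes followed the labels with one exception on the CD11b- side. *Itgae* had log2 signals of 10.55, 10.24 and 10.35 in CD103+CD11b+ DCs, against 8.32, 7.54 and 7.66 in CD103-CD11b+ DCs, and of 10.96, 10.86 and 10.87 in CD103+CD11b- DCs, against 8.61, 8.71 and 8.96 in CD103-CD11b- DCs. CD103 thus separated both pairs without overlap, by 2.54 (adjusted p = 2.1e-05) among CD11b+ DCs and 2.13 (adjusted p = 2.7e-06) among CD11b- DCs, and its own interaction of 0.40 (SE 0.24, adjusted p = 0.49) did not pass. *Itgam* was at 9.44, 9.65 and 9.60 in CD103+CD11b+ DCs against 9.51, 9.55 and 9.54 in CD103-CD11b+ DCs, and at 4.76, 5.05 and 4.99 in CD103+CD11b- DCs, against 7.02, 6.51 and 6.40 in CD103-CD11b- DCs. The CD103-CD11b- arrays lay below every CD11b+ array and above every CD103+CD11b- array, so that *Itgam* itself passed the interaction at 1.74 (SE 0.20, adjusted p = 1.8e-04). For this and every other gene, fewer cells of a type and less RNA per cell cannot be told apart in RNA from a sorted population. *Fcgr1*, the gene of the mϕ marker CD64, was 3.69 to 5.02 on the DC arrays and averaged 8.92 ± 0.21 (SD, n = 3) in mϕ, and *Itgax*, which encodes the DC integrin CD11c, was 9.80 to 10.55 on all 12 DC arrays.

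In total 247 genes (1.24% of 19938) passed with a positive interaction and 201 (1.01%) with a negative one, against a median interaction of 0.00 over all genes. Among CD11b+ DCs, 46 genes (0.231%) were higher and 58 (0.291%) lower in the CD103+ subset. That count of 104 fell to 60 without CD103+CD11b+ replicate 1 and to 63 without CD103-CD11b+ replicate 3. Among CD11b- DCs, 212 genes (1.06%) were higher and 329 (1.65%) lower in the CD103+ subset. Of the 448 genes that passed the interaction, 298 passed the simple difference on the CD11b- side alone, 30 on the CD11b+ side alone, 8 on both sides in the same direction with unequal size, and 4 on both sides in opposite directions, while 108 passed neither simple difference. Over all genes, the average difference by CD11b held 46.8% of the sum of squares between the 4 subset means, the average difference by CD103 held 32.6% and the interaction 20.6%. These shares include the spread between arrays. With the residual variance subtracted they were 49.6%, 32.4% and 17.9% in the same order. Both simple differences use separate arrays, whereas the interaction shares its arrays with each of them.

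**Figure D1:**
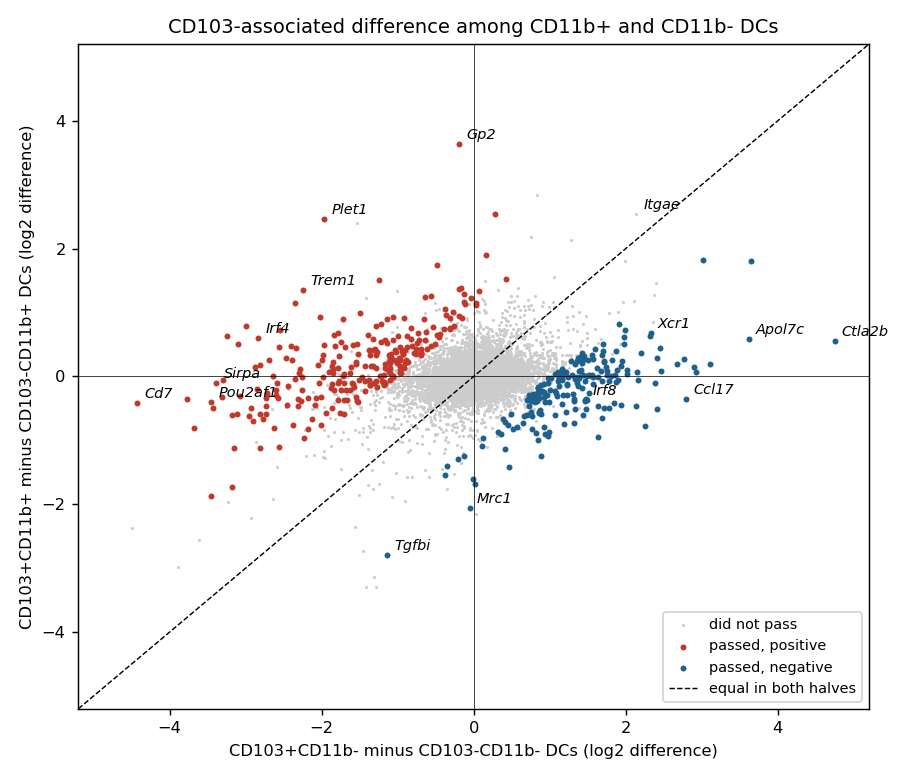
Each point is 1 of 19938 genes, with the log2 difference of CD103+CD11b- minus CD103-CD11b- DCs on the x axis and of CD103+CD11b+ minus CD103-CD11b+ DCs on the y axis (means of 3 arrays each). The 247 genes with a positive interaction (red) lie above the dashed line of equal differences and the 201 with a negative one (blue) below it, most of them spread along the x axis and few along the y axis.

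The subset behind each interaction was read from the 6 pairwise comparisons of the same fit, as a description: a subset stood apart when the gene passed in the same direction against each of the other 3. One subset stood apart for 280 of the 448 genes (62.5%), 2 of which had CD103+CD11b+ DCs at the top and CD103+CD11b- DCs at the bottom. CD103+CD11b- DCs stood apart for 212 genes (47.3%), higher for 96 and lower for 116. CD103-CD11b- DCs were higher for 31 genes and lower for 9. CD103+CD11b+ DCs were higher for 20 and lower for 6, and CD103-CD11b+ DCs were higher for 4 and lower for 0. The other 168 genes had no subset that differed from all 3 others.

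**Figure D2:**
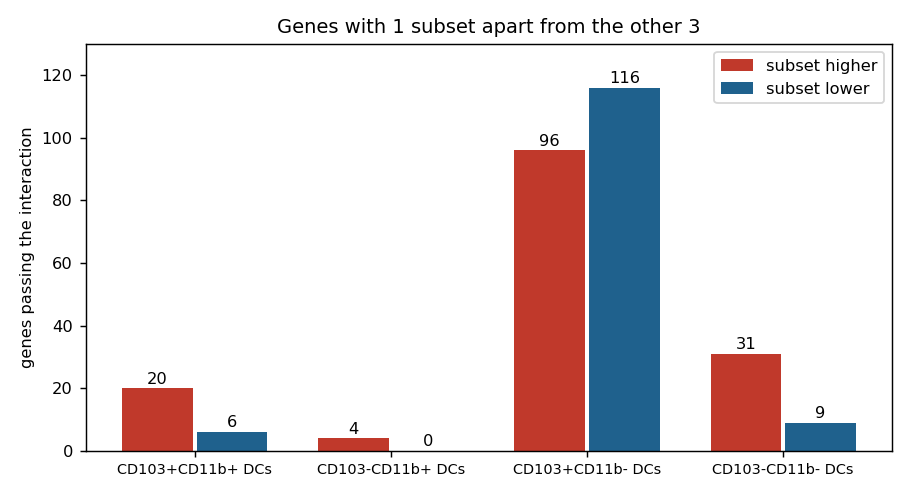
Bars give the number of genes that passed the interaction and in which the subset named on the x axis was higher (red) or lower (blue) than each of the other 3 subsets. CD103+CD11b- DCs account for 96 and 116 genes, against 20 and 6 for CD103+CD11b+ DCs.

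In all, 4 genes crossed over with both simple differences past the limits, being higher with CD103 among CD11b+ DCs and lower with CD103 among CD11b- DCs. *Plet1*, which encodes a surface glycoprotein also found on epithelial progenitors, had the largest interaction of all genes that passed. It was at 11.91, 11.58 and 11.36 in CD103+CD11b+ DCs, against 9.83, 8.86 and 8.80 in CD103-CD11b+ DCs, and at 8.37, 8.63 and 8.21 in CD103+CD11b- DCs, against 10.01, 10.47 and 10.63 in CD103-CD11b- DCs. The arrays of each pair did not overlap, with CD103+CD11b+ DCs highest and CD103-CD11b- DCs second. The differences were 2.46 (adjusted p = 1.7e-04) among CD11b+ DCs and -1.97 (adjusted p = 1.5e-04) among CD11b- DCs, an interaction of 4.43 (SE 0.35, adjusted p = 1.3e-05). *Trem1*, a receptor of myeloid cells that amplifies inflammatory responses, was at 8.80, 8.20 and 8.35 in CD103+CD11b+ DCs, against 7.28, 6.99 and 7.04 in CD103-CD11b+ DCs, and at 4.46, 4.90 and 4.75 in CD103+CD11b- DCs, against 6.83, 7.05 and 6.96 in CD103-CD11b- DCs. Here both CD103- subsets were nearly level and the CD103+ subsets lay on opposite sides of them, with an interaction of 3.59 (SE 0.22, adjusted p = 2.6e-06). *Clec4a4*, which encodes the C-type lectin DCIR2, had the same order, with 7.36, 7.68 and 7.07 in CD103+CD11b+ DCs, against 6.54, 5.83 and 6.29 in CD103-CD11b+ DCs, and 3.59, 3.85 and 3.61 in CD103+CD11b- DCs, against 6.17, 5.92 and 6.03 in CD103-CD11b- DCs. Its interaction was 3.50 (SE 0.25, adjusted p = 5.9e-06). *Fam189a2* was at 6.94, 6.19 and 6.16 in CD103+CD11b+ DCs, against 5.22, 4.88 and 4.68 in CD103-CD11b+ DCs, and at 4.06, 4.17 and 4.43 in CD103+CD11b- DCs, against 5.63, 5.12 and 5.66 in CD103-CD11b- DCs. This gave an interaction of 2.76 (SE 0.30, adjusted p = 1.4e-04). All 4 genes kept their call whichever single array was left out.

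In 20 genes CD103+CD11b+ DCs were higher than all other subsets, among them receptors, lectins and adhesion molecules. *Gp2*, a glycoprotein that binds bacteria on M cells and is abundant in zymogen granules of pancreatic acinar cells, was at 8.48, 8.04 and 7.47 in CD103+CD11b+ DCs and 3.59 to 5.30 on the other 9 arrays. Its interaction of 3.83 (SE 0.59, adjusted p = 0.0016) came from a difference of 3.63 among CD11b+ DCs, beside -0.20 among CD11b- DCs. The 13 measured pancreatic acinar genes averaged 5.18, 7.54 and 6.60 on the same CD103+CD11b+ arrays, and *Gp2* was highest on the array where they were lowest. Its single values over 5 in CD11b- DCs were on CD103+CD11b- replicate 2 and CD103-CD11b- replicate 2, the arrays richest in acinar genes in those subsets. Whether acinar RNA has a part in the *Gp2* values was not tested. The lectin genes *Cd209b* and *Cd209c*, relatives of DC-SIGN, had interactions of 2.22 (SE 0.24, adjusted p = 1.2e-04) and 1.82 (SE 0.30, adjusted p = 0.0024). *Cd209b* was at 8.0, 7.84 and 7.32 in CD103+CD11b+ DCs, against 5.78, 6.03 and 6.12 in CD103-CD11b+ DCs, and no higher than 4.93 on the CD11b- arrays. *Cpm*, which encodes the membrane enzyme carboxypeptidase M, was at 7.92, 8.46 and 7.71 in CD103+CD11b+ DCs, against 5.62, 5.59 and 5.26 in CD103-CD11b+ DCs. The resulting interaction was 2.27 (SE 0.35, adjusted p = 0.0015). *Cd209c* and *Cpm* were chosen after their values were seen.

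*Cdh1*, which encodes the adhesion molecule E-cadherin, was at 9.30, 8.78 and 8.93 in CD103+CD11b+ DCs, against 7.61, 7.57 and 7.71 in CD103-CD11b+ DCs, while CD103+CD11b- DCs had 6.97, 6.62 and 6.89 and overlapped with the 7.19, 6.80 and 6.98 of CD103-CD11b- DCs. The interaction was 1.54 (SE 0.20, adjusted p = 4.3e-04). *Cd101*, an inhibitory receptor, was at 9.42, 9.03 and 9.16 in CD103+CD11b+ DCs, against 7.96, 7.93 and 7.98 in CD103-CD11b+ DCs, and at 4.49, 4.57 and 4.76 in CD103+CD11b- DCs, against 5.25, 5.08 and 5.41 in CD103-CD11b- DCs, so that its signal also went with CD11b, and the interaction was 1.89 (SE 0.16, adjusted p = 2.2e-05). *Siglecf*, which encodes the sialic acid receptor SiglecF, reached 7.32, 7.17 and 7.25 in CD103+CD11b+ DCs, against 6.01, 6.13 and 5.59 in CD103-CD11b+ DCs, and stayed at 4.97 to 5.36 on the CD11b- arrays. This gave an interaction of 1.28 (SE 0.20, adjusted p = 0.002). *Epcam*, an epithelial adhesion molecule, passed narrowly at 1.06 (SE 0.21, adjusted p = 0.0076), and the call was lost on leaving out any single array other than CD103-CD11b+ replicate 1 or CD103+CD11b- replicate 1 (0.90 to 1.10). A list of 25 genes associated with CD103+CD11b+ DCs was drawn up with earlier results of these arrays known, most of them from the study's own lists, and is no independent evidence. Of its members 17 passed with a positive and 1 (*Serpinb6b*) with a negative interaction, beside 1.24% and 1.01% of all genes, and the median was 1.28.

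Lower in CD103+CD11b+ DCs than in all others were 6 genes. *Tgfbi*, a matrix protein first found as a product of TGFβ signalling, was at 6.32, 6.03 and 6.86 in CD103+CD11b+ DCs, against 9.39, 8.99 and 9.22 in CD103-CD11b+ DCs, and at 7.58, 7.88 and 7.71 in CD103+CD11b- DCs, against 8.76, 8.85 and 9.0 in CD103-CD11b- DCs. It was lower with CD103 on both sides, at -2.80 (adjusted p = 2.1e-05) among CD11b+ and -1.15 (adjusted p = 6.9e-04) among CD11b- DCs, and the interaction of -1.66 (SE 0.25, adjusted p = 0.0014) is the excess on the CD11b+ side. *Ifi205*, a member of the interferon-inducible p200 family, averaged 7.25 ± 0.48 in CD103+CD11b+ against 8.50 ± 0.20 in CD103-CD11b+ DCs, while it averaged 11.13 ± 0.19 in CD103+CD11b- against 10.25 ± 0.23 in CD103-CD11b- DCs (SD, n = 3 each). The interaction reached -2.13 (SE 0.29, adjusted p = 6.1e-04). The near-identical sequences within this family can share probes, so its value may include relatives. *Klrk1*, which encodes the activating receptor NKG2D, was at 5.26, 6.07 and 5.97 in CD103+CD11b+ DCs, against 7.41, 7.16 and 7.81 in CD103-CD11b+ DCs, with overlapping arrays in the CD11b- subsets. Its interaction was -1.71 (SE 0.32, adjusted p = 0.0058), and the call was lost without CD103-CD11b+ replicate 1 or 3, any CD103+CD11b- replicate or CD103-CD11b- replicate 2 (-1.75 to -1.50). *Ccr2*, the receptor that draws monocytes and some DCs from the blood, had 4.36, 4.43 and 4.90 in CD103+CD11b+ DCs, against 7.97, 7.21 and 8.37 in CD103-CD11b+ DCs, and 6.26, 6.49 and 6.75 in CD103+CD11b- DCs, against 8.04, 7.43 and 8.28 in CD103-CD11b- DCs. Its interaction of -1.88 (SE 0.39, adjusted p = 0.012) did not pass, and the call was reached without CD103-CD11b+ replicate 2 (-2.20). The *Ccr2* interaction passed at -1.92 to -1.81 under cyclic loess, median centring, array weights, a filter on dim genes, the replicate block and with all 15 arrays in the fit.

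**Figure D3:**
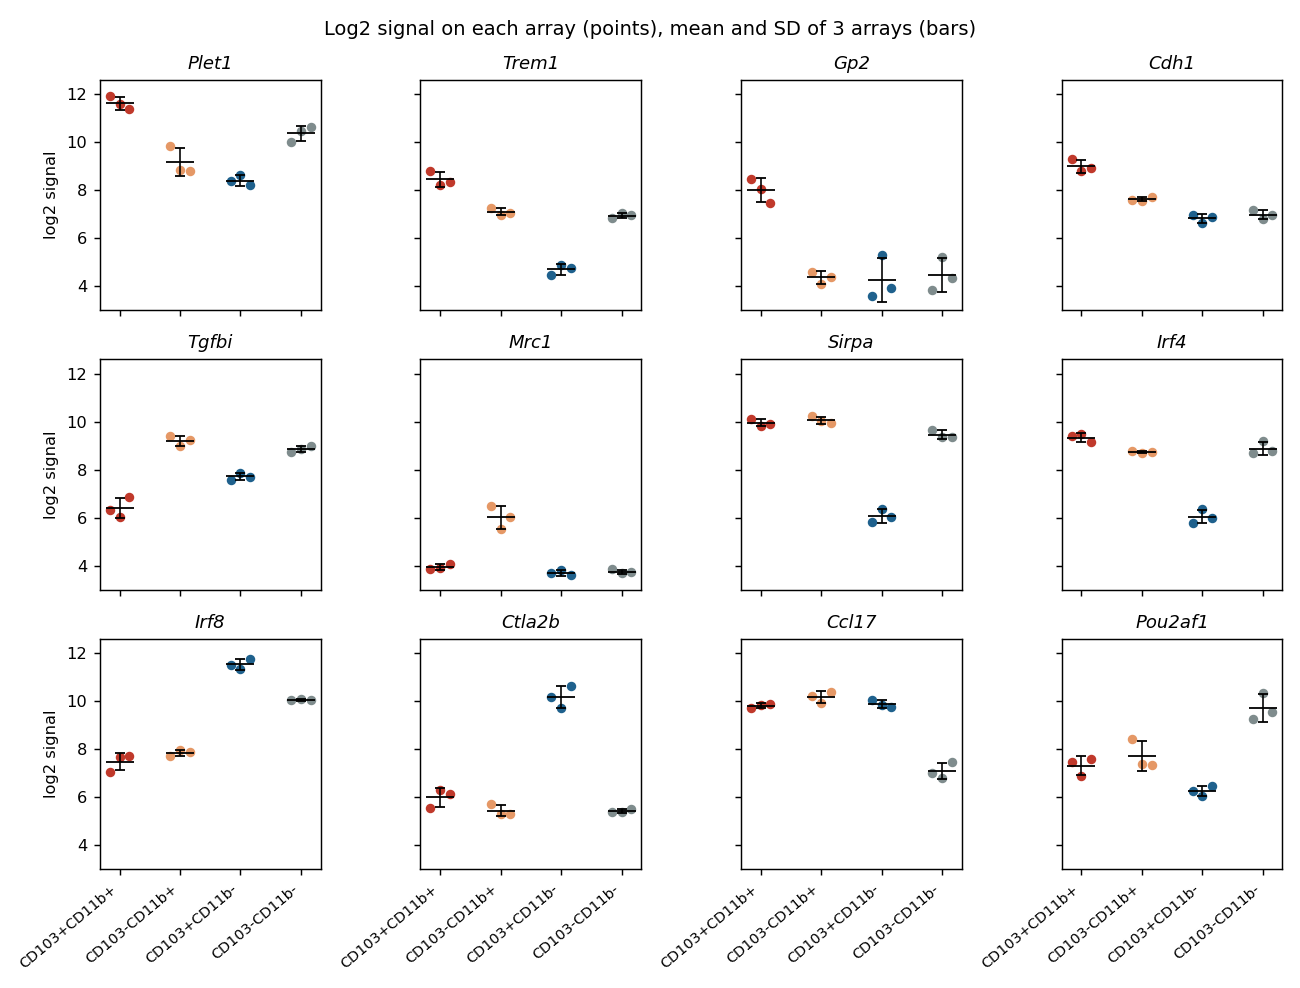
Log2 signal of 12 genes (y axis) on the 3 arrays of each subset (points in replicate order), with the mean and SD as black bars. *Plet1*, *Trem1*, *Gp2* and *Cdh1* peak in CD103+CD11b+ DCs, *Tgfbi* is lowest there, *Mrc1* is raised in CD103-CD11b+ DCs alone, *Sirpa*, *Irf4*, *Irf8* and *Ctla2b* set CD103+CD11b- DCs apart, and *Ccl17* and *Pou2af1* set CD103-CD11b- DCs apart.

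CD103-CD11b+ DCs stood apart for 4 genes, each higher there: *Mrc1*, *Clec4a3*, *Osm* and *Plxdc2*, the last being named after its values were seen. For *Plxdc2*, at -1.05 (adjusted p = 0.002), the call was lost without CD103+CD11b+ replicate 1 or CD103+CD11b- replicate 1 (-0.99 to -0.90). *Mrc1*, the mannose receptor of mϕ, was at 3.88, 3.90 and 4.10 in CD103+CD11b+ DCs, against 6.48, 5.53 and 6.05 in CD103-CD11b+ DCs, and no higher than 3.85 on the CD11b- arrays. The resulting interaction was -2.01 (SE 0.25, adjusted p = 3.6e-04). *Clec4a3*, a C-type lectin, and *Osm*, which encodes the cytokine oncostatin M, had interactions of -1.17 (SE 0.20, adjusted p = 0.0026) and -1.09 (SE 0.13, adjusted p = 2.6e-04), with means of 5.64 and 5.51 in CD103-CD11b+ DCs, close to the lower end of the signal range. With log2 values below 5 set to 5, *Mrc1*, *Clec4a3* and *Osm* were at -1.02, -0.645 and -0.509 and did not pass. All 4 genes had their highest mean of any population in the mϕ arrays, where *Mrc1* averaged 10.49 ± 0.07. The 19 measured mϕ and monocyte markers averaged 6.05 to 6.28 on the CD103+CD11b+ arrays, 7.05 to 7.55 on the CD103-CD11b+ arrays, 5.44 to 5.53 on the CD103+CD11b- arrays, 5.99 to 7.05 on the CD103-CD11b- arrays and 10.38 to 10.61 in mϕ. Among them *C1qb*, a complement component of mϕ, was at 5.25, 5.33 and 6.43 in CD103+CD11b+ DCs, against 9.07, 8.68 and 9.13 in CD103-CD11b+ DCs, and at 4.82, 4.72 and 5.36 in CD103+CD11b- DCs, against 7.89, 4.92 and 5.95 in CD103-CD11b- DCs. Its interaction of -2.0 (SE 0.79, adjusted p = 0.21) did not pass, and the call was reached without CD103-CD11b- replicate 1 (-2.82). CD103-CD11b- replicate 1 was the array highest in mϕ markers of that subset. Whether mϕ RNA has a part in these values was not tested.

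The largest group of positive interactions belonged to genes that were low in CD103+CD11b- DCs and present in the other 3 subsets. The 17 measured cDC2 markers had a median interaction of 1.66, and 10 passed with a positive and 0 with a negative sign, against 1.24% and 1.01% of all genes. *Sirpa*, the inhibitory receptor that defines cDC2, was at 10.13, 9.83 and 9.92 in CD103+CD11b+ DCs, against 10.22, 10.03 and 9.94 in CD103-CD11b+ DCs, and at 5.81, 6.36 and 6.05 in CD103+CD11b- DCs, against 9.68, 9.34 and 9.36 in CD103-CD11b- DCs. The difference by CD103 was -0.10 (adjusted p = 0.89) on the CD11b+ side, where the arrays overlapped, and -3.39 (adjusted p = 5.4e-08) on the CD11b- side, an interaction of 3.28 (SE 0.20, adjusted p = 2.6e-06). *Irf4*, which encodes the cDC2 transcription factor, was at 9.39, 9.50 and 9.14 in CD103+CD11b+ DCs, against 8.79, 8.70 and 8.75 in CD103-CD11b+ DCs, and at 5.79, 6.35 and 6.01 in CD103+CD11b- DCs, against 8.68, 9.20 and 8.77 in CD103-CD11b- DCs. The interaction for this gene was 3.43 (SE 0.22, adjusted p = 3.1e-06). For *Irf4*, 2 of 3 CD103-CD11b- arrays were within the range of the CD11b+ arrays and replicate 1 was just under it, whereas for *Sirpa* all 3 lay below it. *Cd7*, an immunoglobulin superfamily receptor, had 4.51, 6.09 and 5.96 in CD103+CD11b- DCs, against 10.30, 9.64 and 9.91 in CD103-CD11b- DCs. Here the interaction was 4.0 (SE 0.47, adjusted p = 2.2e-04), although CD103+CD11b- replicate 1 lay well below the other 2 replicates. For *Cd209a*, the lectin DC-SIGN homologue, the interaction was 2.35 (SE 0.25, adjusted p = 1.2e-04), with 5.86 to 6.49 in CD103+CD11b- DCs, 7.99 to 8.63 in CD103-CD11b- DCs and 10.56 to 10.76 in both CD11b+ subsets.

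Receptor genes of the Siglec, CD300, LILR, PILR and TREM families made up 8 of the 116 genes lower in CD103+CD11b- DCs than in all others. Of 28 measured genes of these families, 13 passed with a positive and 1 (*Treml4*) with a negative interaction, beside 1.24% and 1.01% of all genes tested, and their median was 0.93. Among CD11b- DCs 13 of the 28 were lower and 1 was higher with CD103. *Siglece*, an inhibitory Siglec of myeloid cells, was at 10.70, 10.29 and 10.57 in CD103+CD11b+ DCs, against 9.89, 9.83 and 9.92 in CD103-CD11b+ DCs, and at 5.48, 6.14 and 6.24 in CD103+CD11b- DCs, against 9.12, 9.10 and 9.38 in CD103-CD11b- DCs. Its interaction amounted to 3.88 (SE 0.24, adjusted p = 2.6e-06). *Cd33*, another Siglec, was at 9.69, 9.38 and 9.42 in CD103+CD11b+ DCs, against 8.76, 8.71 and 8.64 in CD103-CD11b+ DCs, and at 4.87, 4.88 and 5.15 in CD103+CD11b- DCs, against 8.65, 7.56 and 7.66 in CD103-CD11b- DCs. The interaction stood at 3.78 (SE 0.31, adjusted p = 1.6e-05). In both, the CD103+ subset was at the top among CD11b+ DCs without overlap, by 0.64 and 0.79, which did not pass. *Pilra* and *Cd300a*, further inhibitory receptors, had interactions of 2.96 (SE 0.22, adjusted p = 7.2e-06) and 2.64 (SE 0.14, adjusted p = 1.2e-06). *Fcer1g*, the signalling chain of Fc receptors, was at 7.34, 7.82 and 7.67 in CD103+CD11b- DCs, against 11.23, 10.60 and 10.96 in CD103-CD11b- DCs, and 11.20 to 11.79 on the CD11b+ arrays. The interaction for this gene was 3.0 (SE 0.22, adjusted p = 7.2e-06), and *Tyrobp*, the DAP12 adaptor of TREM receptors, had one of 1.23 (SE 0.15, adjusted p = 2.8e-04).

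Transcription factors fell into both directions, with 6 of 31 measured positive and 3 negative, beside 1.24% and 1.01% of all genes. Besides *Irf4*, the positive ones were *Prdm1*, *Stat4*, *Spib*, *Tcf4* and *Bhlhe40*, and the negative ones *Irf8*, *Mycl* and *Bcl6*. For *Mycl*, at -1.26 (adjusted p = 0.0042), the call was lost without CD103+CD11b+ replicate 2, CD103-CD11b+ replicate 2 or 3 or any CD103+CD11b- replicate (-1.28 to -1.13), and for *Bcl6*, at -1.01 (adjusted p = 0.0021), the call was lost without CD103+CD11b+ replicate 2, CD103-CD11b+ replicate 2, CD103+CD11b- replicate 1 or 3 or CD103-CD11b- replicate 2 (-0.98 to -0.92). *Prdm1*, which encodes BLIMP1, a regulator of plasma cells and of DCs, averaged 4.92 ± 0.29 in CD103+CD11b- against 7.80 ± 0.51 in CD103-CD11b- DCs, beside 7.55 in CD103+CD11b+ against 7.41 in CD103-CD11b+ DCs, an interaction of 3.02 (SE 0.30, adjusted p = 6.8e-05). *Stat4*, which transmits IL-12 signals, was at 4.98, 5.12 and 4.86 in CD103+CD11b- DCs, against 7.41, 7.75 and 7.46 in CD103-CD11b- DCs. The interaction came to 3.02 (SE 0.29, adjusted p = 5.5e-05). *Spib*, an ETS factor of plasmacytoid DCs and B cells, was at 5.70, 5.31 and 5.60 in CD103+CD11b+ DCs, against 6.17, 6.26 and 6.20 in CD103-CD11b+ DCs, and at 4.38, 4.55 and 4.26 in CD103+CD11b- DCs, against 7.65, 7.05 and 6.81 in CD103-CD11b- DCs. Its interaction was 2.10 (SE 0.25, adjusted p = 2.4e-04). CD103-CD11b- DCs were the highest of the 4 for *Spib*, above every other array.

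Toll-like and NOD-like sensors went both ways. Of 24 measured, 5 passed with a positive and 2 (*Tlr12* and *Nlrp1b*) with a negative interaction, beside 1.24% and 1.01% of all genes tested, and their median was 0.25. For *Nlrp1b*, named after its values were seen, the call was lost in 9 of 12 omissions of a single array. Its interaction ranged from -1.28 to -0.98 over these 12 fits. Among CD11b- DCs 4 were higher and 5 lower with CD103. *Nod1*, a sensor of bacterial peptidoglycan, was at 4.82, 4.64 and 4.98 in CD103+CD11b- DCs, against 6.99, 7.22 and 7.09 in CD103-CD11b- DCs, with 6.65 to 7.19 on the CD11b+ arrays. Here the interaction was 2.40 (SE 0.18, adjusted p = 8.5e-06). *Ddx58*, which encodes the RNA sensor RIG-I, and *Mefv*, which encodes the inflammasome sensor pyrin, had interactions of 1.91 (SE 0.19, adjusted p = 7.2e-05) and 1.84 (SE 0.19, adjusted p = 1.0e-04). *Il1b*, which encodes the cytokine IL-1β, was 11.02 to 11.71 on the CD11b+ arrays, 8.38 to 9.16 in CD103+CD11b- and 10.38 to 10.61 in CD103-CD11b- DCs, an interaction of 1.69 (SE 0.27, adjusted p = 0.0021). *Ptgs2*, the inducible prostaglandin synthase, named after its values were seen, had 8.0, 8.96 and 7.98 in CD103+CD11b- DCs, against 11.12, 11.24 and 11.02 in CD103-CD11b- DCs. This gave an interaction of 2.99 (SE 0.29, adjusted p = 6.0e-05). *Cybb*, the catalytic subunit of the phagocyte NADPH oxidase, was at 5.48, 6.58 and 5.67 in CD103+CD11b- DCs, against 9.40, 9.92 and 9.71 in CD103-CD11b- DCs. The resulting interaction was 3.42 (SE 0.31, adjusted p = 3.4e-05), and *Ccr1*, a receptor for inflammatory chemokines, had one of 3.61 (SE 0.29, adjusted p = 1.2e-05).

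Promoter sequences are shown for genes of this group, the largest of the subset groups, whose members were chosen by their shared direction. In RefSeq (GRCm38.p6) the 250 bases before the gene start were searched on both strands for GAAA followed after 2 bases of any kind by a second GAAA, the core letters of the response element to which IRF factors bind, and for TGANTCA, the letters that AP-1 factors such as BATF partners bind. Of the 116 genes lower in CD103+CD11b- DCs than in all others, 86 had a promoter in the table, and 9 (10.5%) held the first and 11 (12.8%) the second. Of the 96 genes higher there, 77 had a promoter, and 3 (3.9%) and 6 (7.79%) held them. Among all genes tested, 15614 had a promoter, and 3.4% and 7.12% held them, a gene being counted when any of its listed starts did. No match of one motif overlapped a match of the other. These counts were not tested and a match is a description of letters. Below, the capitals mark the match, each sequence runs 5′ to 3′ on the strand of its gene, and the first 4 hold the repeated GAAA or its reverse complement and the last 2 hold TGANTCA.
Cybb (chrX:9469334-9469363, minus strand): tctgataataGAAAAGGAAAcctattgccc
Stat4 (chr1:52008133-52008162, plus strand): aatgtcttcaGAAAGTGAAAtttagaacgg
Pilra (chr5:137836437-137836466, minus strand): agccacttagGAAATGGAAAacagtagata
Gbp7 (chr3:142530273-142530302, plus strand): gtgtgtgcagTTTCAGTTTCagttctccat
Prdm1 (chr10:44458778-44458807, minus strand): gctggtaggagTGAATCAgaccgtcagtat
Plet1 (chr9:50494370-50494399, plus strand): tggaggctgggTGATTCAtccaggtaatgt
The *Cybb* match lies 29 bases before its start and the *Prdm1* match 48. *Plet1* is shown beside them as the gene with the largest interaction, 144 bases before its start.

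Genes high in CD103+CD11b- DCs made up the largest group of negative interactions. Of 20 measured cDC1 markers 13 passed with a negative and 0 with a positive interaction, beside 1.01% and 1.24% of all genes, and their median was -1.57. *Irf8*, which encodes the cDC1 transcription factor, was at 7.08, 7.66 and 7.72 in CD103+CD11b+ DCs, against 7.72, 7.96 and 7.89 in CD103-CD11b+ DCs, and at 11.52, 11.33 and 11.76 in CD103+CD11b- DCs, against 10.05, 10.11 and 10.05 in CD103-CD11b- DCs. CD103-CD11b- DCs lay above all CD11b+ arrays and below all CD103+CD11b- arrays, and the interaction was -1.84 (SE 0.22, adjusted p = 2.6e-04). *Xcr1*, the chemokine receptor of cDC1, was at 11.03, 10.92 and 11.12 in CD103+CD11b- DCs, against 8.84, 8.30 and 8.95 in CD103-CD11b- DCs, with 5.52 to 6.80 on the CD11b+ arrays. Its interaction amounted to -1.66 (SE 0.27, adjusted p = 0.0025). *Clec9a*, a lectin that recognises dead cells, was at 10.66, 10.31 and 10.49 in CD103+CD11b- DCs, against 9.30, 8.73 and 9.46 in CD103-CD11b- DCs. The interaction for this gene was -2.05 (SE 0.30, adjusted p = 0.0011). *Cadm1*, an adhesion molecule of cDC1, and *Btla*, an inhibitory receptor, had interactions of -2.85 (SE 0.24, adjusted p = 2.0e-05) and -1.68 (SE 0.23, adjusted p = 6.2e-04). *Cd8a* passed at -1.49 (SE 0.26, adjusted p = 0.0037) and the call was lost without CD103+CD11b+ replicate 3, CD103+CD11b- replicate 1 or 3 or CD103-CD11b- replicate 2 (-1.45 to -1.42). *Batf3* at -0.75 (SE 0.20, adjusted p = 0.046) and *Id2* at -0.17 (SE 0.20, adjusted p = 0.8), both regulators of cDC1 development, did not pass, with signals of 8.72 to 9.54 and 8.45 to 10.12 over the 12 arrays.

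Several genes of this group were high in CD103+CD11b- DCs and much lower in all other subsets, CD103-CD11b- DCs included. *Ctla2b*, related to the propeptides of cysteine proteases, had the most negative interaction, at 5.55, 6.33 and 6.13 in CD103+CD11b+ DCs, against 5.73, 5.31 and 5.32 in CD103-CD11b+ DCs, and at 10.17, 9.73 and 10.64 in CD103+CD11b- DCs, against 5.39, 5.40 and 5.52 in CD103-CD11b- DCs, a value of -4.19 (SE 0.32, adjusted p = 7.7e-06). The CD103-CD11b- arrays lay within the range of the CD11b+ arrays for this gene. Its paralogue *Ctla2a* was between means of 3.59 and 4.65 and did not pass, at -0.80 (SE 0.24, adjusted p = 0.085), and close copies can share probes. *Ttc39a* was at 8.45, 8.52 and 8.76 in CD103+CD11b- DCs, against 5.93, 5.76 and 5.75 in CD103-CD11b- DCs, and 5.41 to 5.80 on the CD11b+ arrays. The interaction stood at -2.48 (SE 0.13, adjusted p = 1.2e-06). *Plpp1*, a lipid phosphatase, had 7.89, 8.20 and 8.25 in CD103+CD11b- DCs, against 5.16, 5.10 and 5.40 in CD103-CD11b- DCs. Here the interaction was -2.75 (SE 0.20, adjusted p = 5.9e-06). *Tlr12*, a receptor for the profilin of protozoan parasites, was at 10.14, 10.14 and 10.31 in CD103+CD11b- DCs, against 8.20, 7.63 and 8.03 in CD103-CD11b- DCs, and 5.95 to 7.61 on the CD11b+ arrays. The interaction came to -3.03 (SE 0.30, adjusted p = 7.1e-05). *Tlr12* was higher on each CD103-CD11b- array than on any CD11b+ array.

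Secreted factors were part of the same group. *Il12b*, which encodes the p40 chain of IL-12 and IL-23, was at 7.85, 7.20 and 7.04 in CD103+CD11b- DCs, against 5.14, 5.85 and 4.70 in CD103-CD11b- DCs, and 4.75 to 5.57 on the CD11b+ arrays. Its interaction was -2.60 (SE 0.36, adjusted p = 7.7e-04). *Lif*, a cytokine of the IL-6 family, was at 8.43, 9.41 and 9.14 in CD103+CD11b- DCs, against 6.53, 6.66 and 6.55 in CD103-CD11b- DCs, with 5.69 to 6.73 on the CD11b+ arrays. This gave an interaction of -2.92 (SE 0.32, adjusted p = 1.2e-04). *Il15*, which sustains CD8+ T and NK cells, and *Cxcl9*, a chemokine for activated T cells, had interactions of -1.68 (SE 0.27, adjusted p = 0.0022) and -2.33 (SE 0.36, adjusted p = 0.0015). *Cyp26b1*, which degrades retinoic acid, was at 7.07, 7.13 and 7.49 in CD103+CD11b- DCs, against 4.91, 5.15 and 5.21 in CD103-CD11b- DCs, and 4.69 to 5.13 on the CD11b+ arrays. The resulting interaction was -2.07 (SE 0.19, adjusted p = 4.4e-05).

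On the log2 scale CD103-CD11b- DCs lay closer to the CD11b+ average than to the CD103+CD11b- mean for most of these genes. Of the 96 genes higher in CD103+CD11b- DCs, the CD103-CD11b- mean lay between the CD11b+ average and the CD103+CD11b- mean for 69, and of the 116 lower ones for 89. Counting the CD11b+ average as 0% and the CD103+CD11b- mean as 100%, CD103-CD11b- DCs stood at a median of 13.1% (quartiles -1.64% and 29.2%) for the higher genes and 19.5% (quartiles 3.19% and 34.0%) for the lower ones on the log2 scale. On the linear signal the medians were 6.55% and 36.1%. These genes were chosen by the interaction, to which the CD103-CD11b- arrays contribute, so the positions are a description. They also had to differ by more than 1 between CD103+CD11b- and CD103-CD11b- DCs, which excludes positions near 100% beforehand. A gene at the CD11b+ level can fall on either side of 0% by the spread between arrays.

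Genes of antibody-producing cells and plasmacytoid DCs were among those that set CD103-CD11b- DCs apart from the other DC subsets. Of the 31 genes that were higher there than in all other subsets, 9 were on the lists of plasma cell, B cell or plasmacytoid DC markers. Those lists held 16, 14 and 15 measured genes of the 19938 tested. Among 16 measured plasma cell markers 9 passed with a positive and 0 with a negative interaction, beside 1.24% and 1.01% of all genes, with a median of 1.75. For 5 of these 9 markers, CD103-CD11b- DCs were higher than all other subsets. *Pou2af1*, a coactivator of antibody genes, was at 7.47, 6.89 and 7.62 in CD103+CD11b+ DCs, against 8.44, 7.38 and 7.35 in CD103-CD11b+ DCs, and at 6.25, 6.07 and 6.48 in CD103+CD11b- DCs, against 9.25, 10.35 and 9.57 in CD103-CD11b- DCs. Among CD11b- DCs the CD103+ subset was the lowest of the 4 and the CD103- subset the highest, while the CD11b+ arrays overlapped, and the interaction was 3.05 (SE 0.44, adjusted p = 0.001). *Tnfrsf17*, which encodes the plasma cell receptor BCMA, had 5.37, 5.50 and 5.31 in CD103+CD11b- DCs, against 8.32, 9.09 and 8.31 in CD103-CD11b- DCs. Its interaction amounted to 2.58 (SE 0.35, adjusted p = 5.7e-04). *Ly6d*, a surface marker of early B cells and some plasmacytoid DCs, had 6.26, 5.98 and 6.18 in CD103+CD11b- DCs, against 9.88, 9.77 and 9.05 in CD103-CD11b- DCs. The interaction stood at 2.93 (SE 0.39, adjusted p = 5.1e-04).

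The plasma cell markers averaged 7.68 to 8.04 on the CD103+CD11b+ arrays, 7.96 to 8.52 on the CD103-CD11b+ arrays, 7.33 to 7.42 on the CD103+CD11b- arrays and 8.98 to 9.77 on the CD103-CD11b- arrays, and 7.85 to 8.73 in mϕ. Among 14 B cell markers 4 passed (*Blnk*, *Cd79a*, *Ly6d* and *Vpreb3*), and among 15 plasmacytoid DC markers 4 passed, all positive, beside 1.24% of all genes. For *Cd79a*, at 2.22 (adjusted p = 0.0049), the call was lost on leaving out any single array other than CD103+CD11b+ replicate 2, CD103-CD11b+ replicate 1, CD103+CD11b- replicate 1 or CD103-CD11b- replicate 3 (1.97 to 2.18), and for *Vpreb3*, at 2.21 (adjusted p = 0.0054), the call was lost on leaving out any single array other than CD103+CD11b+ replicate 2, CD103-CD11b+ replicate 1 or CD103-CD11b- replicate 1 or 3 (1.95 to 2.23). *Blnk*, an adaptor of B cell receptor signalling, had an interaction of 2.28 (SE 0.29, adjusted p = 4.3e-04). Plasmacytoid DC markers averaged 5.82 to 5.93 on the CD103+CD11b+ arrays, 6.12 to 6.23 on the CD103-CD11b+ arrays, 5.9 to 6.0 on the CD103+CD11b- arrays, 6.73 to 6.79 on the CD103-CD11b- arrays and 6.55 to 6.87 in mϕ. The B cell markers averaged 4.98 to 5.28, 5.23 to 5.65, 4.81 to 4.87 and 5.87 to 6.07 in the same order, and 5.86 to 6.26 in mϕ, so that for both lists the CD103-CD11b- and mϕ arrays overlapped. *Cd300c* at 1.64 (SE 0.19, adjusted p = 1.8e-04) and *Tcf4*, the E protein that specifies plasmacytoid DCs, at 1.33 (SE 0.18, adjusted p = 6.9e-04) kept their calls whichever array was left out. *Siglech*, a surface marker of plasmacytoid DCs, was at 4.39, 4.21 and 4.13 in CD103+CD11b- DCs, against 6.79, 6.20 and 5.84 in CD103-CD11b- DCs, and no higher than 5.11 on the CD11b+ arrays. The interaction for this gene was 1.93 (SE 0.33, adjusted p = 0.0033), and the call was lost without CD103+CD11b+ replicate 1 or 3, CD103-CD11b+ replicate 3 or CD103+CD11b- replicate 2 or 3 (1.88 to 1.92). Among 18 T cell, NK and ILC markers 1 passed, *Thy1*, at 3.23 (SE 0.54, adjusted p = 0.0026). The *Thy1* call was lost with log2 values below 5 set to 5, and without the array richest in acinar genes of each subset. The part of such cells in the CD103-CD11b- values was not tested.

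**Figure D4:**
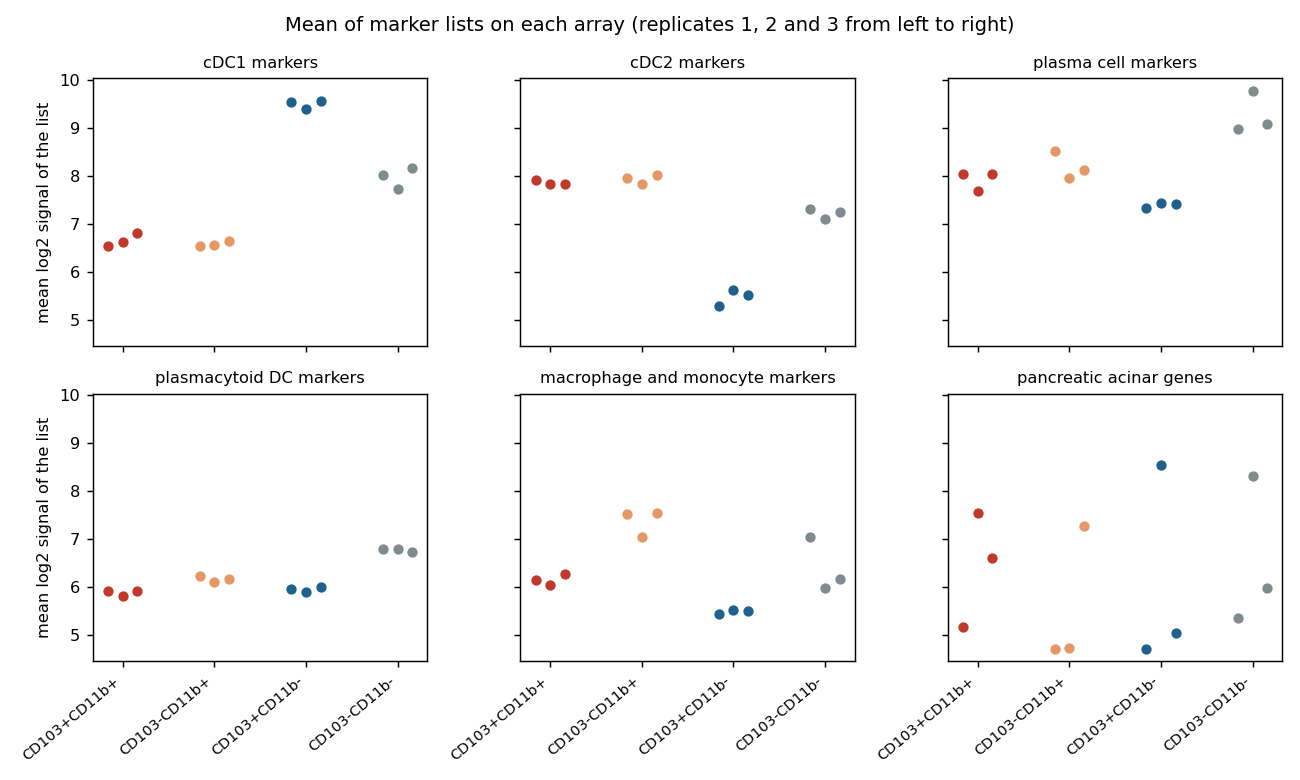
Mean log2 signal (y axis) of 6 marker lists on each of the 12 DC arrays, with 3 points per subset. cDC1 and cDC2 markers place CD103-CD11b- DCs between CD103+CD11b- and CD11b+ DCs, plasma cell and plasmacytoid DC markers are highest in CD103-CD11b- DCs of these 4 subsets, and pancreatic acinar genes vary within every subset, between 4.71 and 8.55.

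The 9 genes lower in CD103-CD11b- DCs than in all others included chemokines of migrating DCs. *Ccl17*, a ligand of CCR4, was at 9.71, 9.85 and 9.90 in CD103+CD11b+ DCs, against 10.23, 9.92 and 10.40 in CD103-CD11b+ DCs, and at 10.06, 9.83 and 9.77 in CD103+CD11b- DCs, against 7.04, 6.80 and 7.46 in CD103-CD11b- DCs. The CD103-CD11b- arrays were the lowest of all 12, and the interaction was -3.15 (SE 0.23, adjusted p = 5.9e-06). *Ccl22*, the second ligand of CCR4, averaged 8.75 ± 0.38 in CD103+CD11b- against 6.55 ± 0.43 in CD103-CD11b- DCs, with an interaction of -1.82 (SE 0.34, adjusted p = 0.0051). For this gene the call was lost on leaving out any single array other than CD103-CD11b+ replicate 2, CD103+CD11b- replicate 2 or 3 or CD103-CD11b- replicate 1 (-1.89 to -1.61). *Tnf*, which encodes the cytokine TNF, was at 8.62, 8.91 and 8.86 in CD103+CD11b- DCs, against 7.03, 7.13 and 7.34 in CD103-CD11b- DCs, and 7.87 to 9.04 on the CD11b+ arrays. Here the interaction was -2.10 (SE 0.25, adjusted p = 2.4e-04). *Aldh1a2*, which makes retinoic acid, was at 8.04, 7.90 and 7.97 in CD103+CD11b- DCs, against 6.11, 5.74 and 6.21 in CD103-CD11b- DCs, and 7.17 to 7.57 on the CD11b+ arrays. Its interaction amounted to -1.71 (SE 0.16, adjusted p = 4.4e-05). *Apol7c*, an apolipoprotein L gene of DCs, had 11.68, 11.01 and 11.50 in CD103+CD11b- DCs, against 8.44, 7.24 and 7.65 in CD103-CD11b- DCs. The interaction came to -3.03 (SE 0.38, adjusted p = 3.3e-04). *Treml4*, chosen after its values were seen and known as a receptor of dead cells, had one of -1.46 (SE 0.23, adjusted p = 0.0016).

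The genes that follow differed by CD103 in the same direction on both sides, and for all but *Csf1r* the interaction did not pass. An interaction that did not pass does not show equal differences on both sides. *S100a4*, a calcium-binding protein of motile cells, was at 7.37, 7.45 and 7.66 in CD103+CD11b+ DCs, against 10.36, 10.29 and 10.76 in CD103-CD11b+ DCs, and at 6.28, 7.19 and 6.34 in CD103+CD11b- DCs, against 10.71, 10.23 and 10.54 in CD103-CD11b- DCs. The differences by CD103 were -2.98 (adjusted p = 2.4e-05) among CD11b+ and -3.89 (adjusted p = 1.8e-07) among CD11b- DCs, with an interaction of 0.91 (SE 0.31, adjusted p = 0.13) that did not pass, and the call was reached without CD103+CD11b- replicate 2 (1.21). *Il22ra2*, the soluble inhibitor of IL-22, was at 6.79, 6.71 and 6.92 in CD103+CD11b+ DCs, against 9.81, 9.01 and 8.71 in CD103-CD11b+ DCs, and at 5.15, 6.66 and 6.07 in CD103+CD11b- DCs, against 10.09, 10.67 and 10.60 in CD103-CD11b- DCs. Its interaction of 2.12 (SE 0.47, adjusted p = 0.017) did not pass, and the call was reached without CD103-CD11b+ replicate 1 or CD103+CD11b- replicate 2 (2.44 to 2.47). With the filter on dim genes *Il22ra2* also passed (2.12). *Cx3cr1*, the fractalkine receptor of mϕ and some DCs, had differences of -1.34 and -1.19. Its interaction was -0.15 (SE 0.34, adjusted p = 0.92). *Zeb2*, a cDC2 factor, had differences of -0.86 (adjusted p = 0.0021), which did not pass, and -1.84 (adjusted p = 6.3e-07), and its interaction of 0.98 (SE 0.17, adjusted p = 0.0041) missed the limit of 1, but the call was reached without CD103+CD11b+ replicate 1, CD103+CD11b- replicate 3 or CD103-CD11b- replicate 2 (1.05 to 1.13). Under cyclic loess *Zeb2* also passed (1.02). *Csf1r*, the receptor for the mϕ growth factor CSF1, differed in the same direction on both sides and passed, at 1.44 (SE 0.26, adjusted p = 0.0042). It was the single gene of 448 whose sign turned when the differences were taken on the linear signal, and the call was lost without CD103+CD11b+ replicate 1 or 3, CD103+CD11b- replicate 1 or 3 or CD103-CD11b- replicate 3 (1.29 to 1.49).

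Several other gene lists had few or no members that passed, where 1.24% of all genes passed with a positive and 1.01% with a negative interaction. None of 28 measured TGFβ ligands, receptors and SMADs passed, with a median of -0.04, and *Tgfbr1*, which encodes the receptor that the study deletes elsewhere, had an interaction of 0.05 (SE 0.19, adjusted p = 0.95) and signals of 7.30 to 8.04 over the 12 arrays. Of 15 measured TGFβ target genes, 2 passed with a positive and 1 with a negative interaction, and the median was 0.07. None of 24 cell cycle genes passed (median -0.29), nor any of 22 epithelial markers (0.30) or 16 granulocyte and mast cell markers (0.05). The epithelial markers averaged 7.04 to 7.80 on the CD103+CD11b+ arrays and 6.30 to 6.56 on the CD103-CD11b+ arrays. They averaged 7.14 to 7.57 on the CD103+CD11b- arrays and 6.43 to 7.075 on the CD103-CD11b- arrays. Their median difference by CD103 was 0.96 among CD11b+ and 0.49 among CD11b- DCs. Whether epithelial RNA has a part in *Cdh1*, *Epcam* or *Plet1* was not tested. Among 15 genes of MHC class II and antigen processing 1 passed, the protease gene *Lgmn*, at 1.20 (SE 0.15, adjusted p = 3.1e-04), and among 18 of MHC class I and cross-presentation 3 did. These were *Cybb*, positive, *Rab7b* at -1.64 (SE 0.21, adjusted p = 3.8e-04) and the peptide transporter gene *Tap1* at -1.17 (SE 0.20, adjusted p = 0.0029). For *Tap1*, the call was lost without CD103+CD11b+ replicate 1 (-1.11). A list with no gene past the limits is not shown to be equal between subsets. At these shares of all genes, lists of this size may well hold none.

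**Figure D5:**
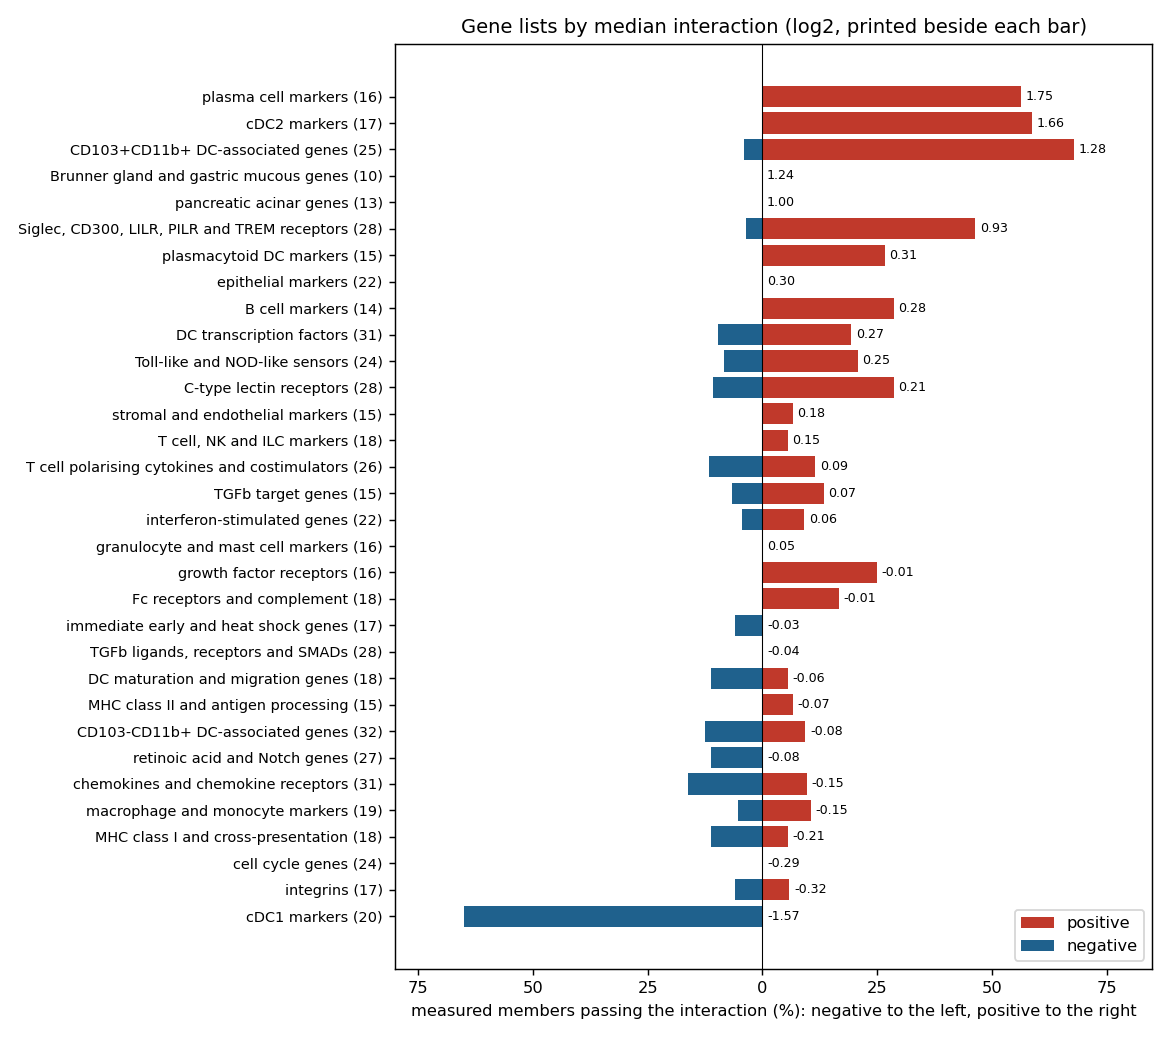
Share of the measured members of each of 32 gene lists (number in brackets) that passed the interaction, negative to the left and positive to the right (x axis, %), ordered by the median interaction printed beside each bar. cDC1 markers lie at the bottom with a median of -1.57 and plasma cell and cDC2 markers at the top with 1.75 and 1.66, while several lists have no member that passed.

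Genes of pancreatic acinar cells varied between replicates more than between subsets. The mean of the 13 measured genes was 5.18, 7.54 and 6.60 on the CD103+CD11b+ arrays, 4.71, 4.73 and 7.28 on the CD103-CD11b+ arrays, 4.72, 8.55 and 5.04 on the CD103+CD11b- arrays and 5.36, 8.31 and 5.99 on the CD103-CD11b- arrays. The digestive enzyme gene *Ctrb1* had one of the largest interactions of all, but with an SE to match: 3.93 (SE 2.70, adjusted p = 0.57). Leaving out the array richest in these genes in each subset, which left 2 arrays per subset, brought the calls to 102 positive and 64 negative. The 10 measured genes of Brunner glands and gastric mucous cells also varied between replicates, with 0 that passed and a median of 1.24. Their part in the interaction was not tested otherwise.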

How the data were processed

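RNA from sorted small intestinal LP cells was hybridized to Affymetrix Mouse Gene 1.0 ST arrays. The authors deposited log2 signals made with RMA, which corrects background, quantile-normalizes the arrays and summarizes each probeset, and the version and genome build are not given in the sources used here. RMA fits all arrays together, so values of different arrays are not fully independent. Of 35556 probesets, 21789 carried 1 gene symbol in the platform annotation, 1621 several and 12146 none listed. The single-symbol probeset with the highest mean over the 12 DC arrays stood for each of 19938 genes.

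A group-means model was fitted in limma (3.58.1, R 4.3.3) with eBayes, and p-values were Benjamini-Hochberg adjusted over all genes. The fit was tested on simulated data. Tables were made in Python (3.11.15) with numpy (2.4.6) and pandas (2.3.3), and figures with matplotlib (3.10.9). Named genes were those with the largest interactions (12 per direction, 3 per subset pattern and 4 per crossing direction), up to 4 per gene list, sort and lineage genes and genes the study's text discusses, beside *Bcl6*, *Bhlhe40*, *Cd209c*, *Cd300a*, *Cpm*, *Ctla2a*, *Gbp7*, *Il18*, *Mycl*, *Nlrp1b*, *Plxdc2*, *Ptgs2*, *Serpinb6b*, *Tbx21*, *Treml4* and *Tyrobp*, which were picked with their values in view. Members and lists were chosen with earlier results of these data known. Alternatives changed the probeset, normalization, dim filter, floor, spread estimate, threshold, test, replicate block and arrays. The floor with constant genes left out was chosen after seeing the data.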

Additional observations from a re-analysis of the deposited data

Results flagged for a closer look

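The simple differences by CD103 differed between CD11b+ and CD11b- DCs by the test of the interaction itself in 247 genes with a positive and 201 with a negative sign. In 4 of them both simple differences passed in opposite directions: *Plet1*, with an interaction of 4.43, *Trem1* with 3.59, *Clec4a4* with 3.50 and *Fam189a2* with 2.76.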

How the results depend on the processing

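With log2 values below 5 set to 5, 111 genes passed with a positive and 103 with a negative interaction, 36 passed among CD11b+ DCs, while CD103+CD11b+ DCs stood apart in 12 genes, CD103-CD11b+ DCs in 2, CD103+CD11b- DCs in 134 and CD103-CD11b- DCs in 11. That floor made 8562 genes constant, and with those left out, a setting chosen after seeing the data, the counts were 206 and 168. A test against a difference of 1 (treat) left 33 and 11 genes, 4 among CD11b+ and 134 among CD11b- DCs, and 0, 0, 34 and 1 by subset in the same order. A t-test on the same fit without the eBayes moderation of the spread, after Benjamini-Hochberg, gave 100 and 96 genes, and 28 among CD11b+ DCs. Without the array richest in pancreatic acinar genes of each subset, 102 and 64 passed, and 22 among CD11b+ DCs. At an adjusted p under 0.05, CD103-CD11b+ DCs stood apart in 7 genes and CD103-CD11b- DCs in 70. Omitting single arrays gave 194 to 264 positive and 159 to 216 negative calls, 60 to 113 among CD11b+ and 498 to 573 among CD11b- DCs. Under cyclic loess, list medians were 0.347 for DC transcription factors, -0.000296 for MHC class II, -0.139 for MHC class I and 0.0766 for growth factor receptors. The causes were not tested.

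Deviations of same-number arrays correlated at a mean of 0.19, against -0.09 for other pairs. Of 18 same-number pairs, 15 were over 0.1, and 11 of 12 arrays correlated best with their own number, a hint from the data and not the design. The arrays were not treated as paired, and the replicate block gave 277 positive and 223 negative calls, 119 among CD11b+ and 560 among CD11b- DCs. Of 116 named genes that passed, 41 kept their call in every alternative other than treat, and 87 in every omission of a single array. The test against a difference of 1 (treat) was not part of that count, and it left 33 and 11 of all genes. The block brought *Ccr2* past the limits. *Gp2* and *Thy1* lost their calls with an intensity trend and robust prior and under the t-test without eBayes moderation. *Cdh1* and *Xcr1* lost theirs with all 15 arrays in the fit. The main limits are 3 arrays per subset, signals near the lower end of the range and array annotation in which close paralogues can share probes.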

Other observations

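Among 27 measured retinoic acid and Notch genes 3 passed, all with a negative interaction, beside 1.01% of all genes. One of these was *Hes1*, a target of Notch signalling, at -1.34 (SE 0.24, adjusted p = 0.0042), and the call was lost on leaving out any single array other than CD103+CD11b+ replicate 3, CD103-CD11b+ replicate 2, CD103+CD11b- replicate 1 or CD103-CD11b- replicate 2 (-1.37 to -1.22).

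Among 26 T cell polarising cytokines and costimulators, 3 passed in each direction, beside 1.24% of all genes with a positive and 1.01% with a negative interaction. *Il18*, an inflammasome-processed cytokine chosen after its values were seen, was at 1.40 (SE 0.24, adjusted p = 0.0028) beside *Il1b*, and the call was lost without CD103-CD11b+ replicate 2 or CD103+CD11b- replicate 3 (1.32). Among 22 interferon-stimulated genes 3 passed, *Ddx58* and *Isg20* with a positive and *Oasl1* with a negative sign, beside the same shares of all genes. *Isg20*, an exonuclease, averaged 6.34 ± 0.24 in CD103+CD11b- against 8.12 ± 0.38 in CD103-CD11b- DCs (SD, n = 3 each), an interaction of 1.68 (SE 0.24, adjusted p = 7.8e-04). *Oasl1* averaged 7.52 ± 0.18 in CD103+CD11b- against 6.05 ± 0.67 in CD103-CD11b- DCs, an interaction of -1.98 (SE 0.34, adjusted p = 0.0028), and the call was lost without CD103-CD11b+ replicate 3 or CD103+CD11b- replicate 3 (-1.94 to -1.91). *Tbx21*, which encodes the transcription factor T-bet and was chosen after its values were seen, was at 6.83, 6.70 and 6.67 in CD103+CD11b+ DCs, against 6.11, 5.84 and 6.20 in CD103-CD11b+ DCs, and at 5.33, 5.08 and 5.13 in CD103+CD11b- DCs, against 5.89, 5.66 and 5.89 in CD103-CD11b- DCs. The interaction stood at 1.32 (SE 0.16, adjusted p = 2.4e-04). Neither pair overlapped, and the CD103+ subset was the higher one among CD11b+ DCs and the lower one among CD11b- DCs. Neither simple difference passed for this gene.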
